A study of Caenorhabditis elegans with 72 samples.

Results

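The vacuolar ATPase, the proton pump that acidifies lysosomes, and the acid proteases of lysosomes and gut were followed in *Caenorhabditis elegans* mutants of interleukin-17 signaling. Members were the protein-coding genes named *vha*, *asp*, *cpr*, *cpl* or *cpz* with a number, together with *unc-32*, and were found through the WormBase identifiers of the table. Of 46624 genes, 49 were members. The pump accounted for 21 of them and the proteases for 28, which were 17 *asp*, 8 *cpr*, 2 *cpz* genes and 1 *cpl* gene. All 4 groups were whole L4 larvae of the AX204 strain background that carried the *npr-1* mutation, including the controls. The mutants carried an additional mutation in *malt-1*, which encodes a paracaspase, in *ilc-17.1*, for an IL-17 ligand that the table spells ilk17, or in *nfki-1*, for an IκB-like protein, and *npr-1* animals, which the table calls WT, served as the control. The labels name no alleles. They list 18 samples per genotype and 72 in all, but the deposited table holds 1 FPKM value per genotype and comparison (reads of a gene scaled to its length and to the depth of sequencing), so that it shows no spread between samples and no test could be made from these values. The samples outnumber the biological replicates that the methods describe, which were fewer for *ilc-17.1* than for the other genotypes. Some *ilc-17.1* samples repeat an earlier sample number with a suffix. How the samples map to the replicates could not be worked out. The table's p-values and q-values are the authors' own and were not used, so differences below are given without an error, and depth is unknown. Each mutant was compared with *npr-1* animals to describe the expression changes that go with loss of IL-17 signaling.

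The V-ATPase has a cytosolic part, V1, which hydrolyzes ATP, and a part in the membrane, V0, through which protons pass. V1 is built from subunits A to H and V0 from subunits a, c, c'', d and e. In the worm the pump works in lysosomes of most cells, at the apical face of the gut, in the excretory canal, in the epidermis and on synaptic vesicles, and the gene used for subunit a differs between these places. Aspartyl proteases of the cathepsin D kind (*asp*) and cysteine proteases of the cathepsin L (*cpl*), B (*cpr*) and Z (*cpz*) kinds work best at low pH. Many of them are made in the intestine, which both stores lysosome-related granules and digests bacteria in its lumen.

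Genes were counted where the mean FPKM of the 4 genotypes was at least 1, which 13607 genes passed. A gene was called higher or lower where the log2 difference on the log2(FPKM + 1) scale reached 0.25, a ratio of 1.19. Higher calls made up 18.5% of all genes in *malt-1*, 23.9% in *ilc-17.1* and 25.9% in *nfki-1* mutants, against *npr-1* animals. Lower calls made up 11% in *malt-1*, 18.9% in *ilc-17.1* and 16.6% in *nfki-1* mutants, so that 29.5%, 42.8% and 42.5% of genes were called in either direction in *malt-1*, in *ilc-17.1* and in *nfki-1* mutants. The *malt-1* gene itself had 4.03 FPKM in *malt-1*, 8.31 in *ilc-17.1*, 6.40 in *nfki-1* mutants and 6.54 in *npr-1* animals. *ilc-17.1* had 0.226, 0.157, 0.224 and 0.313 FPKM in the same genotypes, and *nfki-1* had 18.2, 23.5, 8.99 and 24.1 FPKM. Each gene was thus lowest in the mutant named for it. The *ilc-17.1* values were all under the minimum of 1 FPKM, so no difference is read from that gene. The FPKM sums of the genotypes were unequal. Dividing by them (TPM) moved the median of all genes to 0.17 in *ilc-17.1* and to 0.10 in *nfki-1* mutants on the log2 scale, and to 0 in *malt-1* mutants, and the calls of members that this changed are given below. Under TPM, higher calls made up 17.2% of all genes in *malt-1*, 38.5% in *ilc-17.1* and 32.4% in *nfki-1* mutants, and lower calls 10.8%, 8.69% and 9.44%. A value of exactly 0 was not taken as absence. Of 19701 protein-coding genes, 3264 (16.6%) were listed at 0 in every genotype, among them 1 of 78 cytosolic ribosomal protein genes (*rpl-37*) and the pharyngeal myosin gene *myo-2*.

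The pump genes were expressed at high levels in all genotypes, and on the FPKM scale few of them stood apart from *npr-1* animals. Of 21 pump genes, 20 passed the filter. Of these, 0 were called in *malt-1*, 0 in *ilc-17.1* and 1 in *nfki-1* mutants, where *vha-5* was lower. The median log2 difference of the 20 genes was 0.05 in *malt-1*, 0.07 in *ilc-17.1* and -0.04 in *nfki-1* mutants, beside 0.0043, 0.022 and 0.014 over all genes. Single pump genes lay between -0.12 and 0.22 in *malt-1*, between -0.19 and 0.21 in *ilc-17.1* and between -0.25 and 0.20 in *nfki-1* mutants. Their SD over genes was 0.080, 0.10 and 0.091 in *malt-1*, in *ilc-17.1* and in *nfki-1* mutants, beside 0.57, 0.65 and 0.63 for all genes, which include many genes of low level. Under TPM, 8 of 20 pump genes were called higher and 0 lower in *ilc-17.1* mutants (median 0.24), close to the 38.5% of all genes. They were *vha-6*, *vha-8*, *vha-10*, *vha-13*, *vha-15*, *vha-16*, *vha-17* and *unc-32*, at 0.25 to 0.38. Under this scaling the pump had 1 call higher and 0 lower in *nfki-1* mutants (median 0.067) and 0 calls in *malt-1* mutants (median 0.045). That scaling turned the sign of 6 pump genes in *ilc-17.1* and of 14 in *nfki-1* mutants, so no direction is read for the family in these mutants.

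Because most pump genes are abundant, they were also set beside the 1549 genes with a mean FPKM of at least 100, a minimum chosen after seeing the data. Of these, 10.3% were higher and 6.78% lower in *malt-1*, 10.5% higher and 34.9% lower in *ilc-17.1*, and 13.8% higher and 24.9% lower in *nfki-1* mutants, against *npr-1* animals. On the FPKM scale the 18 pump genes in this class had 0 calls in each of the 3 mutants. Under TPM this did not hold. The 8 pump genes called higher in *ilc-17.1* and the 1 in *nfki-1* mutants under that scaling all belong to this class. Shares of all abundant genes were not computed under TPM. On the FPKM scale the medians of the 18 genes were 0.06 in *malt-1*, 0.08 in *ilc-17.1* and -0.04 in *nfki-1* mutants. Those of all abundant genes were -0.019, -0.15 and -0.13.

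**Figure D1:**
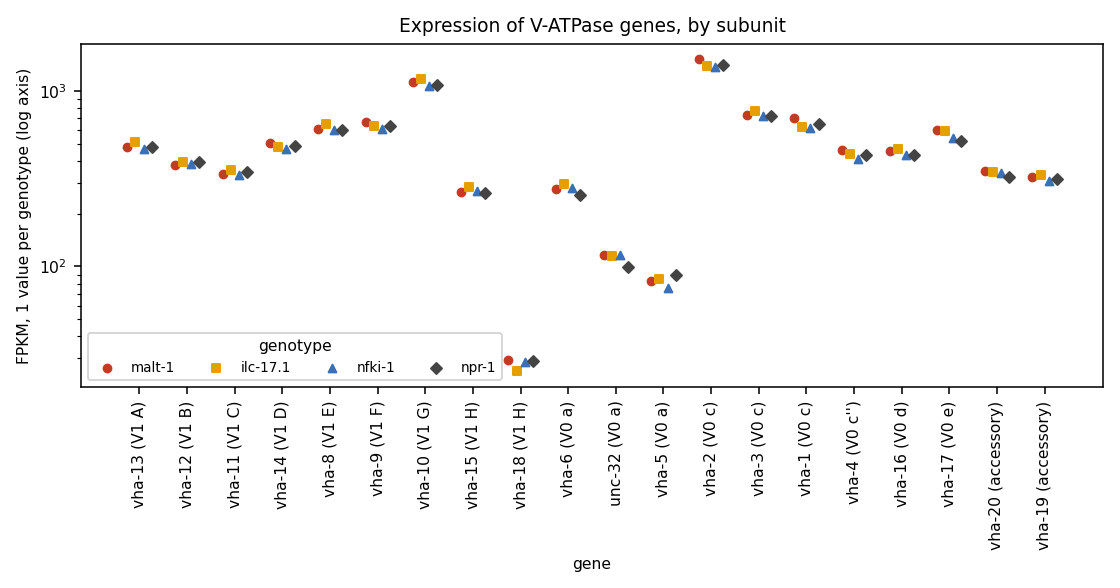
FPKM (log axis) of the 20 V-ATPase genes that passed the filter, ordered by subunit, with 1 point per genotype (*malt-1*, *ilc-17.1*, *nfki-1*, *npr-1*) and no error bars, since the table holds 1 value per genotype. The 4 points of a gene lie close together from *vha-2* at 1372 to 1505 FPKM down to *vha-18* at 25.3 to 29.5 FPKM, while genes of the same subunit can lie far apart.

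Subunit a of V0, which anchors the pump in a given membrane, is encoded by 4 genes. *vha-6*, the gene of the apical intestine, had 275 FPKM in *malt-1*, 296 in *ilc-17.1*, 280.1 in *nfki-1* mutants and 254 in *npr-1* animals, and its log2 differences from *npr-1* animals were 0.11, 0.21 and 0.13. *unc-32*, which is used broadly and in neurons, had 116 FPKM in *malt-1*, 114.5 in *ilc-17.1*, 116 in *nfki-1* mutants and 99.5 in *npr-1* animals, with differences of 0.22, 0.19 and 0.20. Both genes were thus highest in the mutants and lowest in *npr-1* animals, short of the fold used for a call. *vha-5*, known from the excretory canal and epidermis, went the other way. It had 82.4 FPKM in *malt-1*, 84.5 in *ilc-17.1*, 75.1 in *nfki-1* mutants and 89.1 in *npr-1* animals, with differences of -0.12, -0.09 and -0.25, the last just past the fold. Under TPM the difference of *vha-5* in *ilc-17.1* mutants turned to 0.076 and that in *nfki-1* mutants was -0.15, while *vha-6* reached 0.38 and *unc-32* 0.35 in *ilc-17.1* mutants and *unc-32* reached 0.31 in *nfki-1* mutants. In the table *vha-5* and *unc-32* are listed at loci that 4 and 2 genes share. *vha-7*, another epidermal gene for subunit a, lay between 0.234 and 0.294 FPKM.

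The make-up of subunit a does not depend on the scaling between genotypes. *vha-6* held 58.0% of the subunit's summed FPKM in *malt-1*, 59.8% in *ilc-17.1*, 59.5% in *nfki-1* mutants and 57.3% in *npr-1* animals. *unc-32* held 24.5%, 23.1%, 24.5% and 22.5% in the same order of genotypes. The share of *vha-5* was 17.4% in *malt-1*, 17.04% in *ilc-17.1* and 15.9% in *nfki-1* mutants, against 20.1% in *npr-1* animals. The sum of the subunit a genes was 474 FPKM in *malt-1*, 496 in *ilc-17.1*, 471 in *nfki-1* mutants and 443 in *npr-1* animals.

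Subunit c forms the rotating ring of V0 and was the most abundant position. *vha-2* had 1505 FPKM in *malt-1*, 1382 in *ilc-17.1*, 1372 in *nfki-1* mutants and 1399 in *npr-1* animals. *vha-1*, which lies 400 bases upstream of *vha-2* on chromosome III, had 700.2, 623, 614 and 649 FPKM in these genotypes, with differences of 0.10, -0.07 and -0.09 from *npr-1* animals, of which the last 2 were 0.094 and 0.012 under TPM. *vha-3* had 728, 763, 717 and 720.4 FPKM. *vha-2* held 51.3%, 49.9%, 50.8% and 50.5% of the sum of the 3 genes in *malt-1*, *ilc-17.1*, *nfki-1* mutants and *npr-1* animals. These genes are close copies, so reads may be split between them. *vha-17*, for subunit e, was the V0 gene outside subunit a with the largest mean absolute difference over the 3 mutants. It had 596 FPKM in *malt-1*, 593 in *ilc-17.1*, 535 in *nfki-1* mutants and 519 in *npr-1* animals, with differences of 0.20, 0.18 and 0.04, which under TPM were 0.19, 0.35 and 0.14. *vha-4* (subunit c'') and *vha-16* (subunit d) lay between 411 and 465 FPKM.

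The V1 genes gave sums of 4379 FPKM in *malt-1*, 4482 in *ilc-17.1*, 4217 in *nfki-1* mutants and 4301 in *npr-1* animals, and the V0 genes sums of 4918, 4757, 4549 and 4590 FPKM. Over the whole pump, the mutants reached 104.6%, 104.1% and 98.8% of the level in *npr-1* animals in *malt-1*, in *ilc-17.1* and in *nfki-1* mutants, or 103.9%, 115.8% and 105.3% under TPM. *vha-10*, for subunit G of the stalk, was the most abundant V1 gene with 1119 FPKM in *malt-1*, 1159 in *ilc-17.1*, 1066 in *nfki-1* mutants and 1083 in *npr-1* animals. *vha-8* (subunit E) and *vha-9* (subunit F) lay between 598 and 661 FPKM, and *vha-14* (subunit D) and *vha-11* (subunit C) between 332 and 506 FPKM. *vha-13* and *vha-12*, for the catalytic subunit A and its partner B, had differences between -0.06 and 0.08, or between -0.07 and 0.25 under TPM. Subunit H has a pair of genes of very different level. *vha-15* held 90.05% of their sum in *malt-1*, 91.8% in *ilc-17.1*, 90.4% in *nfki-1* mutants and 90.03% in *npr-1* animals. *vha-18* had 29.5 FPKM in *malt-1*, 25.3 in *ilc-17.1*, 28.6 in *nfki-1* mutants and 28.9 in *npr-1* animals, and its difference in *ilc-17.1* mutants, -0.19, was the lowest of the pump there and was -0.032 under TPM. The accessory genes *vha-19* and *vha-20* lay between 306 and 349 FPKM.

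The proteases were less even. Of 28 protease genes, 13 passed the filter, and each of these had at least 5.23 FPKM in every genotype. In *malt-1* mutants 2 were higher and 3 lower than in *npr-1* animals, in *ilc-17.1* mutants 2 were higher and 5 lower, and in *nfki-1* mutants 1 was higher and 6 lower. Lower calls were thus 3, 5 and 6 of 13, beside 11%, 18.9% and 16.6% of all genes. Higher calls were 2, 2 and 1 of 13, beside 18.5%, 23.9% and 25.9% of all genes. Their median log2 difference was -0.13 in *malt-1*, -0.18 in *ilc-17.1* and -0.21 in *nfki-1* mutants, beside the medians of all genes given above. Under TPM 2 were higher and 3 lower in *malt-1* and in *ilc-17.1* mutants, and 2 higher and 4 lower in *nfki-1* mutants. The TPM medians were -0.13 in *malt-1*, -0.013 in *ilc-17.1* and -0.10 in *nfki-1* mutants. These calls stand beside the TPM shares of all genes given above. Of the 10 protease genes with at least 100 FPKM, 2 were lower in *malt-1*, 4 in *ilc-17.1* and 4 in *nfki-1* mutants. Among all abundant genes 6.78%, 34.9% and 24.9% were lower, the share in *ilc-17.1* mutants being close to that of the proteases. The medians of the 10 genes were -0.12 in *malt-1*, -0.21 in *ilc-17.1* and -0.16 in *nfki-1* mutants. Those of all abundant genes were -0.019, -0.15 and -0.13. In *ilc-17.1* and *nfki-1* mutants abundant genes as a class thus lay lower as well.

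**Figure D2:**
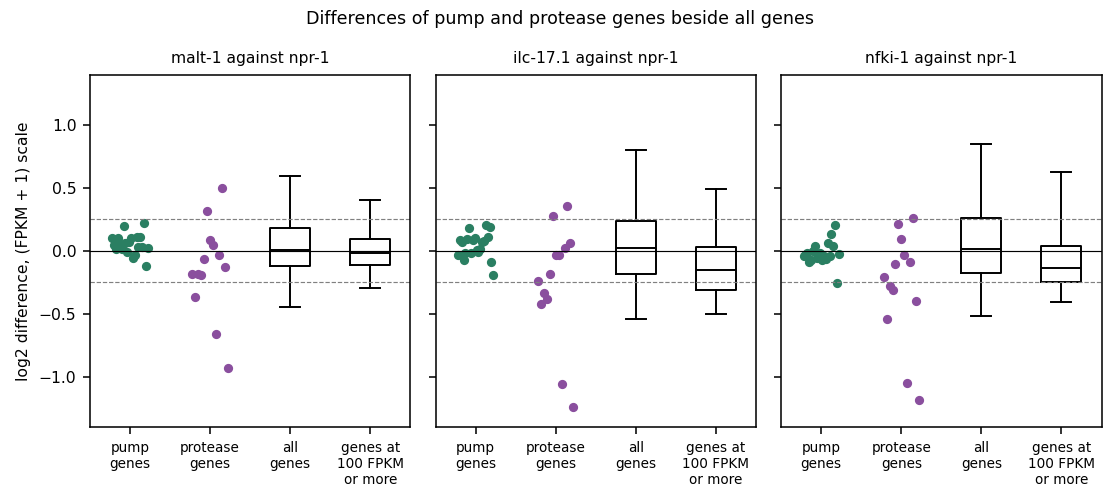
Log2 difference from *npr-1* animals on the (FPKM + 1) scale in *malt-1*, in *ilc-17.1* and in *nfki-1* mutants. Each point is 1 of the 20 pump or 13 protease genes; boxes give the quartiles and median of the 13607 genes of the filter and of the 1549 abundant genes, whiskers their 5th and 95th percentiles, and dashed lines the fold of 0.25. The pump genes lie near 0, with signs in *ilc-17.1* and *nfki-1* mutants that turn for 6 and 14 of them under TPM, and the protease genes spread from -1.24 to 0.50.

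Most of the protease signal came from aspartyl proteases. *asp-1*, *asp-6* and *asp-3* together held 63.6% of the summed protease FPKM in *malt-1*, 64.2% in *ilc-17.1*, 63.6% in *nfki-1* mutants and 66.8% in *npr-1* animals. The 28 genes summed to 10247 FPKM in *malt-1*, 9659 in *ilc-17.1*, 9677 in *nfki-1* mutants and 11527 in *npr-1* animals. The mutants thus had 88.9%, 83.8% and 84.0% of the *npr-1* level in *malt-1*, in *ilc-17.1* and in *nfki-1* mutants, or 88.3%, 93.3% and 89.5% under TPM. In whole animals, fewer cells of a type and less RNA per cell cannot be told apart.

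*asp-1*, an intestinal protease and rank 88 among all genes by mean FPKM, had 2894 FPKM in *malt-1*, 2803 in *ilc-17.1*, 2868 in *nfki-1* mutants and 3287 in *npr-1* animals. Its log2 differences of -0.19, -0.24 and -0.21 did not reach the fold. *asp-3*, which with *asp-4* is needed for necrotic death of neurons, had 1556 FPKM in *malt-1*, 1409.8 in *ilc-17.1*, 1459 in *nfki-1* mutants and 1759 in *npr-1* animals, with differences of -0.18, -0.33 and -0.28. *asp-4* was not called, with 419, 389, 423 and 394 FPKM in *malt-1*, *ilc-17.1*, *nfki-1* mutants and *npr-1* animals. *asp-2* had 939 FPKM in *malt-1*, 872 in *ilc-17.1*, 917 in *nfki-1* mutants and 980 in *npr-1* animals, all differences being short of the fold. Under TPM the differences of *asp-1* and *asp-3* were between -0.07 and -0.19 in the 3 mutants, all short of the fold.

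The genes called in the same direction in all 3 mutants were *asp-6*, *asp-12* and *asp-17*, all lower, and *cpl-1*, higher. These 4 were called in the same direction under TPM as well. The call of *cpl-1* in *nfki-1* mutants, at 0.26, was just past the fold. With differences centred on the median of all genes, 0 proteases were called higher there. *asp-6* had 2063 FPKM in *malt-1*, 1992 in *ilc-17.1*, 1828 in *nfki-1* mutants and 2649 in *npr-1* animals, a difference of -0.36, -0.42 and -0.55. *asp-12* had 135 FPKM in *malt-1*, 103 in *ilc-17.1* and 104 in *nfki-1* mutants, against 214 in *npr-1* animals, and its differences were -0.66, -1.06 and -1.05. *asp-17* had 6.67 FPKM in *malt-1*, 5.23 in *ilc-17.1* and 5.44 in *nfki-1* mutants, against 13.6 in *npr-1* animals, and its differences of -0.93, -1.24 and -1.19 were the largest of any member. For both genes the level in *npr-1* animals stood well above that in each mutant, and *malt-1* mutants lay between the others and *npr-1* animals. The differences of the more abundant *asp-1* and *asp-2* were smaller and short of the fold in all 3 mutants.

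**Figure D3:**
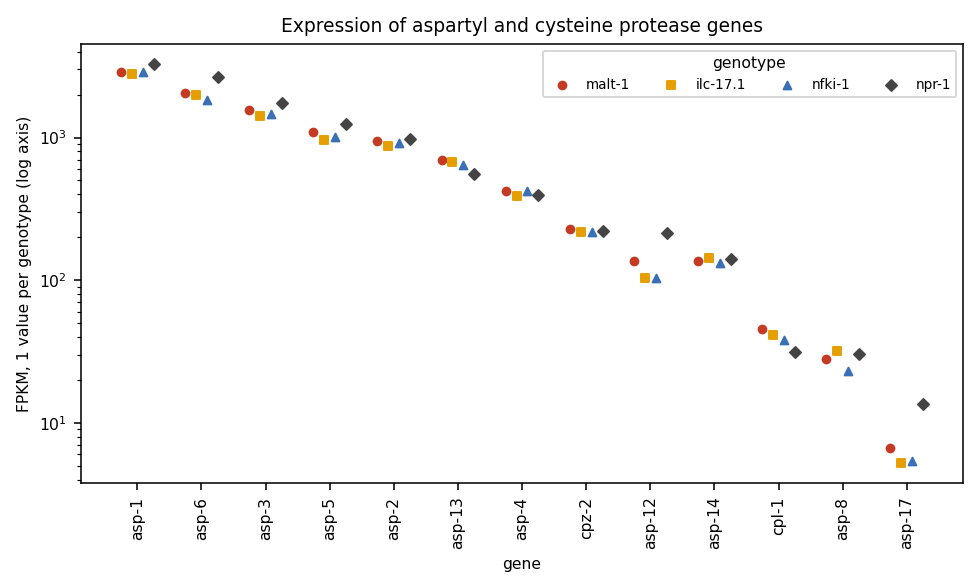
FPKM (log axis) of the 13 protease genes that passed the filter, from the highest to the lowest mean, with 1 point per genotype (*malt-1*, *ilc-17.1*, *nfki-1*, *npr-1*) and no error bars. The *npr-1* point lies above the 3 mutants for *asp-1*, *asp-2*, *asp-3*, *asp-5*, *asp-6*, *asp-12* and *asp-17*. It lies below them for *asp-13* and *cpl-1*.

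*asp-6*, *asp-12* and *asp-5* lie side by side on chromosome V. In WBcel235, *asp-6* runs from 8267511 to 8268937 on the minus strand, *asp-12* from 8269210 to 8272056 on the plus strand and *asp-5* from 8272385 to 8274044 on the plus strand, with 272 bases between the first pair and 328 between the second. *asp-5* had 1099 FPKM in *malt-1*, 967 in *ilc-17.1*, 1013 in *nfki-1* mutants and 1251 in *npr-1* animals, with differences of -0.19, -0.38 and -0.31, which under TPM were -0.20, -0.22 and -0.21. All 3 neighbors were thus lower in each mutant than in *npr-1* animals, by unequal amounts. *asp-17* (19035723 to 19037322) lies elsewhere on this chromosome, in a row on the minus strand with *asp-16*, *asp-15* and *asp-1*. In this row *asp-16* and *asp-15* stayed under 0.1 FPKM in all genotypes, and *asp-1* was far more abundant than *asp-17*. Members of the *asp* family resemble each other in sequence, and reads shared between them could not be traced.

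A smaller set of proteases was higher in the mutants, with shares below those of all genes called higher. *cpl-1*, the cathepsin L of the worm, which is needed in embryos and for handling of yolk, had 45.3 FPKM in *malt-1*, 41.1 in *ilc-17.1*, 38.2 in *nfki-1* mutants and 31.6 in *npr-1* animals, and differences of 0.50, 0.36 and 0.26. *asp-13* had 693 FPKM in *malt-1*, 679 in *ilc-17.1*, 647 in *nfki-1* mutants and 556 in *npr-1* animals, and differences of 0.31, 0.28 and 0.21, the last of which was 0.31 under TPM. Both were highest in *malt-1* mutants on the FPKM scale, but under TPM *cpl-1* differed by 0.49 in *malt-1* and 0.52 in *ilc-17.1* mutants, and *asp-13* by 0.31 in *malt-1* and 0.44 in *ilc-17.1* mutants. *asp-8* was called lower in *nfki-1* mutants, with 23.01 FPKM, against 27.9 in *malt-1* and 32.1 in *ilc-17.1* mutants and 30.4 in *npr-1* animals, and its difference of -0.40 was -0.30 under TPM. *asp-14* and *cpz-2*, a cathepsin Z, had differences between -0.09 and 0.05. TPM turned the signs of *asp-4* and *cpz-2* in *ilc-17.1* and of *asp-14* and *cpz-2* in *nfki-1* mutants, none of them past the fold.

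The remaining 15 protease genes were under a mean of 1 FPKM, and no difference is read from them. *asp-9* had 0.549 FPKM in *malt-1*, 0.978 in *ilc-17.1*, 0.591 in *nfki-1* mutants and 0.359 in *npr-1* animals. *cpz-1*, which acts in molting, had 0.259, 0.300, 0.266 and 0.118 FPKM, and *cpr-2* had 0.118, 0.339, 0.225 and 0.230 FPKM in the same genotypes. *asp-7*, *asp-15* and *asp-16* had at most 0.173 FPKM. *cpr-1*, *cpr-3*, *cpr-4*, *cpr-5*, *cpr-6*, *cpr-8*, *cpr-9*, *asp-18* and *asp-19* were listed at 0 in all 4 genotypes. Since *rpl-37* and *myo-2* are listed at 0 as well, nothing is read from the table on the cathepsin B class, to which the gut protease gene *cpr-1* belongs.

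The mutants were also compared with each other, with the same values per genotype as above. Pump genes were called 0 times in *ilc-17.1* against *malt-1*, in *nfki-1* against *malt-1* and in *nfki-1* against *ilc-17.1* mutants, beside 36.1% (19.1% higher, 17% lower), 26.8% (16.5% higher, 10.3% lower) and 31.4% (18.3% higher, 13.1% lower) of all genes. Among abundant genes the share was 30.9%, 18.6% and 13.9%. Under TPM 4 pump genes were higher and 0 lower in *ilc-17.1* than in *malt-1* mutants, and 0 were called in the other pairs. Of all genes, 41.7%, 30.8% and 33.2% were called in these comparisons under TPM, counting both directions. Their TPM shares by direction were not computed. Among proteases, *asp-12* and *asp-17* were lower in *ilc-17.1* than in *malt-1* mutants, at -0.40 and -0.31. Both were also lower in *nfki-1* than in *malt-1* mutants, at -0.39 and -0.26, together with *asp-8* at -0.28. The 1 call in *nfki-1* against *ilc-17.1* mutants was *asp-8*, lower at -0.45. Under TPM 1 protease gene was higher and 0 were lower in *ilc-17.1* against *malt-1* mutants, so that *asp-12* and *asp-17* did not pass there, and 1 was lower in *nfki-1* against *malt-1* mutants. The medians of the 13 proteases were -0.11, -0.11 and 0.023 in *ilc-17.1* against *malt-1*, *nfki-1* against *malt-1* and *nfki-1* against *ilc-17.1* mutants, and those of the pump 0.032, -0.067 and -0.067, beside 0, 0.0028 and 0.0040 over all genes. Under TPM all 3 protease medians changed sign, to 0.059, 0.0035 and -0.052 in the same comparisons, and so did that of the pump in *nfki-1* against *malt-1* mutants, to 0.045.

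Other genes that work with lysosomes and proteases were taken from lists. On the FPKM scale their higher calls stand beside 18.5%, 23.9% and 25.9% of all genes in *malt-1*, in *ilc-17.1* and in *nfki-1* mutants. Their lower calls stand beside 11%, 18.9% and 16.6%. Of 33 genes of the lysosomal membrane and lumen that passed the filter, 6 were higher and 6 lower in *malt-1*, 8 higher and 3 lower in *ilc-17.1*, and 8 higher and 6 lower in *nfki-1* mutants, with medians of 0.02, 0.06 and 0.01. Under TPM 16 were higher and 1 lower in *ilc-17.1* and 10 higher and 3 lower in *nfki-1* mutants, beside the TPM shares of all genes given above, which apply to the lists that follow as well. The largest mean differences in this list were those of the lysosomal lipase genes *lipl-1* and *lipl-2*. *lipl-1* had 6.91 FPKM in *malt-1*, 8.35 in *ilc-17.1* and 6.29 in *nfki-1* mutants, against 0.697 in *npr-1* animals, with differences of 2.21, 2.46 and 2.096. *lipl-2* had 7.28, 7.90 and 5.93 FPKM in *malt-1*, in *ilc-17.1* and in *nfki-1* mutants, against 2.06 in *npr-1* animals. The related gene *lipl-5*, singled out after its values were seen, went the other way with 144 FPKM in *malt-1*, 101 in *ilc-17.1* and 128 in *nfki-1* mutants, against 267 in *npr-1* animals. These lipase genes passed the fold in opposite directions in all 3 mutants. *gba-2*, a glucocerebrosidase gene singled out in the same way, had 2.46 FPKM in *malt-1*, 3.45 in *ilc-17.1* and 2.66 in *nfki-1* mutants. In *npr-1* animals it had 0.652 FPKM, and its differences were 1.06, 1.42 and 1.14. *lipl-1* and *gba-2* were thus under 1 FPKM in *npr-1* animals and passed the filter only through the mutants.

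Of 14 genes that regulate lysosomes, 1 was higher and 0 lower in *malt-1*, 6 higher and 1 lower in *ilc-17.1*, and 1 higher and 2 lower in *nfki-1* mutants, with medians of 0.07, 0.20 and 0.06. Under TPM 8 were higher and 1 lower in *ilc-17.1* and 4 higher and 1 lower in *nfki-1* mutants. *hlh-30*, the worm TFEB, which activates lysosomal genes, had 54.3 FPKM in *malt-1*, 72.5 in *ilc-17.1* and 69.4 in *nfki-1* mutants, against 45.9 in *npr-1* animals, with differences of 0.23, 0.64 and 0.58. *mxl-3*, which represses lysosomal lipase genes in fed worms, had 91.7 FPKM in *malt-1*, 76.0 in *ilc-17.1* and 71.8 in *nfki-1* mutants, against 104 in *npr-1* animals, with differences of -0.19, -0.46 and -0.54. The 2 regulators thus lay on opposite sides of *npr-1* animals, and for both the *malt-1* difference was the smallest and short of the fold.

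Among 15 other digestive or lysosomal peptidases, 3 were higher and 4 lower in *malt-1*, 2 and 2 in *ilc-17.1*, and 2 and 3 in *nfki-1* mutants, with medians of -0.0070, 0.13 and 0.15. TPM gave 8 higher and 2 lower in *ilc-17.1* and 6 higher and 2 lower in *nfki-1* mutants. *pcp-1*, related to prolylcarboxypeptidases, had 151 FPKM in *malt-1*, 161 in *ilc-17.1* and 153 in *nfki-1* mutants, against 94.1 in *npr-1* animals, while *pcp-2* of the same family had 18.9, 22.9 and 19.4 FPKM, against 30.8 in *npr-1* animals. Of 7 protease inhibitors, 1 was higher and 1 lower in *malt-1*, 2 and 1 in *ilc-17.1*, and 1 and 1 in *nfki-1* mutants, with medians of -0.09, 0.045 and -0.17. *cpi-1*, a cystatin, the class that inhibits cysteine proteases such as *cpl-1*, had 166 FPKM in *malt-1*, 152 in *ilc-17.1* and 154 in *nfki-1* mutants, against 120.4 in *npr-1* animals, and the serpin gene *srp-3* had 3.54, 4.54 and 3.77 FPKM, against 6.95 in *npr-1* animals. Of 17 genes of transport to endosomes and lysosome-related organelles, 1 was higher in *malt-1*, 4 in *ilc-17.1* and 0 in *nfki-1* mutants, and 0 were lower in any mutant, with medians of 0.02, 0.18 and 0.06. Under TPM 11 were higher in *ilc-17.1* and 2 in *nfki-1* mutants. *rme-8*, an endosomal protein with a DnaJ domain, differed by 0.27, 0.47 and 0.15 in *malt-1*, in *ilc-17.1* and in *nfki-1* mutants, and *apm-3*, of the AP-3 adaptor, by 0.24, 0.22 and 0.16.

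**Figure D4:**
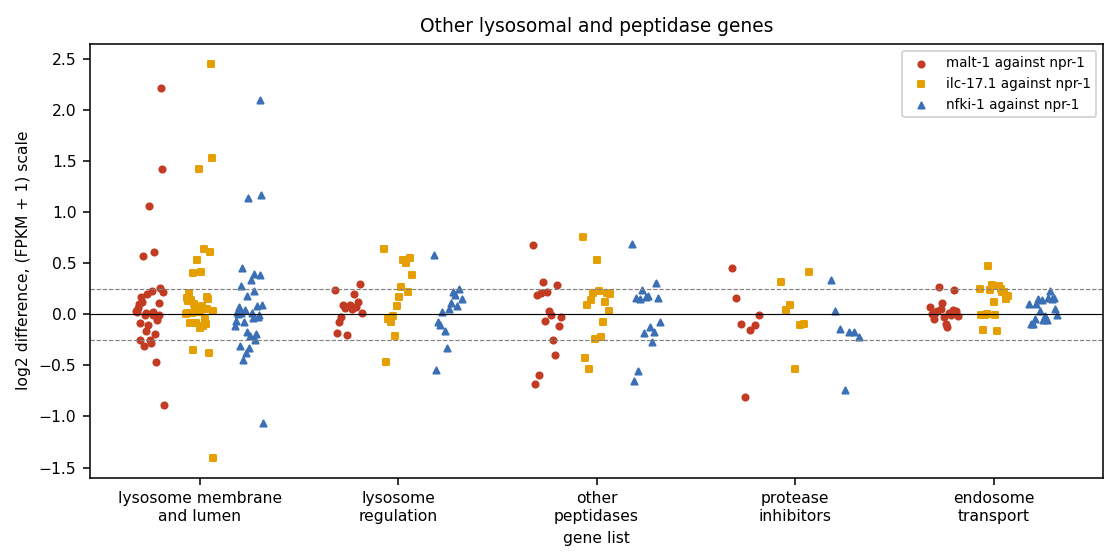
Log2 difference from *npr-1* animals on the (FPKM + 1) scale for the genes of 5 lists, with 1 point per gene and mutant (*malt-1*, *ilc-17.1*, *nfki-1*) and dashed lines at the fold of 0.25. The points farthest from 0 are *lipl-1*, at 2.096 to 2.46, a gene under 1 FPKM in *npr-1* animals. Under TPM the genes of the first list called higher in *ilc-17.1* mutants number 16.

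Markers of the tissues that make these genes were read in the same way, beside the same shares of all genes. Of 7 intestinal markers, 6 were found by name and 4 passed the filter (*ges-1*, *elt-2*, *act-5*, *pept-1*) and 0 were called in any mutant, though 1 was higher in *ilc-17.1* mutants under TPM. The list's sums were 1554 FPKM in *malt-1*, 1658 in *ilc-17.1*, 1588 in *nfki-1* mutants and 1733 in *npr-1* animals, and *ifb-2* was listed at 0. Most of each sum came from *act-5*, with 1378, 1461, 1404 and 1546 FPKM in the same genotypes. On the FPKM scale *pept-1* differed by -0.12 in *malt-1*, 0.15 in *ilc-17.1* and 0.03 in *nfki-1* mutants. The other intestinal markers above the filter had differences below 0 in each mutant. Of 4 germ line markers, 2 were lower in *malt-1*, 3 in *ilc-17.1* and 2 in *nfki-1* mutants, with sums of 359, 310.0, 366 and 433 FPKM in *malt-1*, *ilc-17.1*, *nfki-1* mutants and *npr-1* animals. Of 3 body wall muscle markers, 1 was higher in *malt-1*, 3 in *ilc-17.1* and 1 in *nfki-1* mutants, with sums of 795, 1099.7, 894 and 754 FPKM. Of 5 neuronal markers, 0 were called in *malt-1*, 1 was higher and 2 lower in *ilc-17.1* and 1 was lower in *nfki-1* mutants, with sums of 333, 322, 299 and 338 FPKM. The muscle sums came mostly from *unc-54* and the neuronal sums mostly from *snb-1*. Of 3 excretory canal markers above the filter, *pgp-12* was lower in *malt-1* (-0.36) and in *nfki-1* mutants (-0.29), while *clh-3* was higher in *ilc-17.1* mutants (0.30). Under TPM *pgp-12* did not pass in *nfki-1* mutants (-0.20), *clh-3* was higher in *ilc-17.1* (0.44) and in *nfki-1* mutants (0.32), and *exc-4* was higher in *ilc-17.1* mutants (0.38). Under TPM, germ line markers gave 1 higher and 2 lower in *ilc-17.1* and 1 lower in *nfki-1* mutants, neuronal markers 1 higher and 0 lower in each of these 2 mutants, and muscle markers 3 and 2 higher. The part of these shifts in the differences of pump and protease genes was not tested. The epidermal and pharyngeal lists had 1 gene each above the filter and 2 and 3 genes listed at 0, so these tissues could not be checked.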

How the data were processed

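Stranded libraries were made from polyadenylated RNA. Per the labels, reads were processed with Trim Galore 0.4.3, TopHat2 2.1.0, Cufflinks 2.2.1 and Cuffdiff. The FPKM values in the authors' deposited table are single estimates per genotype, given for each of 7 comparisons of a pair of genotypes, 1 pair being listed in both orders. The labelled samples were pooled there, 0 columns hold values per sample, and depth, SD and confidence intervals are unknown. The authors' own log2 fold changes, test statistics, p-values and q-values for each gene were not used. The limma fit intended for values per sample was not possible.

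Levels are FPKM averaged over the comparisons that list a genotype, which for a member differed by a ratio of at most 1.02, and differences are log2((FPKM + 1)/(FPKM + 1)) within a comparison (pseudocount 1). The minimum mean was 1 FPKM and the fold 0.25 on the log2 scale. Python 3.11.15, pandas 2.3.3, numpy 2.4.6 and matplotlib 3.10.9 were used, and the counting was tested on simulated data. Names and coordinates came from Ensembl release 115 of WBcel235. The build of the table is not given in the sources used here, but all 49 member loci overlapped their gene, 16 at loci shared with other genes. Members and lists were chosen with earlier results of these data known. Values were given in all genotypes for the subunit a genes, the 5 pump and 8 protease genes of largest mean absolute difference, the 6 most abundant proteases, members called in all 3 mutants and the 2 largest differences of each list, and others were added after their values were seen. Other pseudocounts, filters, folds and scalings were tried.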

Additional observations from a re-analysis of the deposited data

How the results depend on the processing

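Counts of called genes and medians of both families were recomputed in 6 comparisons. A count was taken as stable within 1.5 times and a median within 0.1 on the log2 scale, which held for 194 values and not for 34. With pseudocounts of 0.1 and 0, the filter on *npr-1* alone and median centring, every count and median was stable. Median centring still left 0 proteases higher in *nfki-1* mutants against *npr-1*, so *cpl-1* was not called there. With no filter the protease medians were 0 in each mutant against *npr-1* and in *ilc-17.1* and *nfki-1* against *malt-1* mutants, since many members are listed at 0, and the protease counts were 4 (*ilc-17.1* against *malt-1*) and 2 (*nfki-1* against *ilc-17.1*). With a minimum of 10 FPKM the protease count of *ilc-17.1* against *malt-1* was 1. With FPKM averaged over comparisons, the pump count of *nfki-1* mutants was 0.

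With TPM the pump count was 8 in *ilc-17.1* mutants and 4 against *malt-1* mutants. The pump medians were 0.24 for *ilc-17.1* and 0.067 for *nfki-1* mutants against *npr-1*, and 0.20 and 0.045 against *malt-1* mutants. The protease medians were -0.013 and -0.10 against *npr-1*, and 0.059 and 0.0035 against *malt-1*, where the protease counts were 1 and 1. With a fold of 0.5 the protease counts were 3, 2 and 3 in *malt-1*, in *ilc-17.1* and in *nfki-1* mutants against *npr-1* and 0 between mutants, and the pump count of *nfki-1* mutants was 0. With a minimum of 100 FPKM, chosen after seeing the data, the protease counts were 3 in *malt-1* and 4 in *nfki-1* mutants against *npr-1*, 1 in *ilc-17.1* and 1 in *nfki-1* against *malt-1*, and 0 in *nfki-1* against *ilc-17.1*, and the pump count of *nfki-1* mutants was 0. The causes of these changes between settings were not tested.

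No paired analysis was possible because the table holds no values per sample, and for the same reason replicates could not be left out in turn.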
